A study of Mus musculus with 12 samples.

Results

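The array used here carried 366 probe sets named for microRNA genes among 35556 in all. They were found by symbol: any probe set whose annotation listed a symbol that starts with Mir and a digit, or with Mirlet7, alone or beside other symbols, was taken. RNA was measured on 12 arrays of cultured mouse myeloid progenitors, 3 in each of 4 groups. Every mouse had the tamoxifen-inducible recombinase CreER and was given tamoxifen by mouth, 5 mg a day for 3 days, the Zfx wt mice included. The c-Kit+ bone marrow cells were infected with a retrovirus carrying Myc and a GFP marker, or with the control virus carrying GFP, and were grown for 48 hours before GFP+ cells were sorted and kept for 4 more days with the cytokines SCF, IL-6 and IL-3, each at 10 ng/mL. The groups were Myc virus in Zfx wt (Zfx wt/y CreER), Myc virus in Zfx ko (Zfx fl/y CreER), GFP virus in Zfx wt and GFP virus in Zfx ko. Zfx is an X-linked zinc finger transcription factor, and the series asks how its deletion affects gene expression under Myc. The virus was read from the sample titles, because the treatment text is the same for both viruses. The Myc probe set was higher with the Myc virus (log2 change 0.80 in Zfx wt and 0.90 in Zfx ko, limma adjusted p = 0.00209 and 0.000983). The Zfx probe set averaged 1048 ± 63.2 in Myc Zfx ko, against 991.8 ± 26.4 in Myc Zfx wt, and 1021 ± 64.9 in GFP Zfx ko, against 946.2 ± 72.9 in GFP Zfx wt (SD, n = 3 each). It gave no lower value for the ko label (adjusted p = 0.914 and 0.772), so Zfx ko below means the arrays labelled so, also wherever a direction is given. The part of the Zfx transcript that its probes cover is not given in the sources used here.

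MicroRNAs are short RNAs that lower the stability and translation of messenger RNAs that pair with their seed, the bases near the 5′ end. Each is cut from a hairpin in a longer primary transcript, by Drosha in the nucleus and Dicer in the cytoplasm, and loaded onto an Argonaute protein. Myc is known in other cells to raise the primary transcript of the miR-17-92 cluster and to lower many other microRNAs, among them let-7, miR-15a, miR-22, miR-26 and miR-29. The labelling started from 200 ng of total RNA with a kit for whole transcripts, and the sources used here do not say whether a microRNA probe set reads the primary transcript, the hairpin or the mature form. A difference in a bulk sample cannot tell fewer cells of a type from less RNA per cell.

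The microRNAs of the miR-17-92 cluster lie close together on mouse chromosome 14 (chr14:115043671-115044506, plus strand, RefSeq on GRCm38.p6) and carry 4 seeds. Their mature sequences are shown because the changes with Myc described below turn on this cluster, and because its paralogues carry the same seeds on other chromosomes. Capitals mark the seed (bases 2 to 8) of the RefSeq mature sequences, written 5′ to 3′.
miR-17-5p: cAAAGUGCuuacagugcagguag
miR-20a-5p: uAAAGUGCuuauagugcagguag
miR-18a-5p: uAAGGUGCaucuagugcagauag
miR-19a-3p: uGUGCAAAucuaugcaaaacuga
miR-19b-3p: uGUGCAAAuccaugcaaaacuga
miR-92a-3p: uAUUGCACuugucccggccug
The seed AAAGUGC of miR-17 and miR-20a recurs in miR-106b and miR-93 of the cluster on chromosome 5 (chr5:138165321-138165818, minus strand, inside Mcm7) and in miR-106a and miR-20b of the cluster on chromosome X (chrX:52741693-52742567, minus strand). The seed AUUGCAC of miR-92a recurs in miR-25 and miR-363. The chromosome X cluster also holds second genes for miR-19b and miR-92a, whose mature sequences are the same letters as above.
miR-106b-5p: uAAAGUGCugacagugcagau
miR-93-5p: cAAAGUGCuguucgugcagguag
miR-25-3p: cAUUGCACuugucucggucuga
miR-106a-5p: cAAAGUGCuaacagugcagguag
miR-20b-5p: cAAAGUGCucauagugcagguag
miR-363-3p: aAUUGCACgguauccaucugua
For the pair of genes that passed the test in both genotypes, Mir18 (chr14:115043851-115043946, plus strand) and Mir22 (chr11:75463716-75463810, plus strand, inside the lncRNA gene Mir22hg), the RefSeq hairpins are given with the mature arm in capitals. They show how much of each hairpin lies outside the mature arm.
Mir18 hairpin: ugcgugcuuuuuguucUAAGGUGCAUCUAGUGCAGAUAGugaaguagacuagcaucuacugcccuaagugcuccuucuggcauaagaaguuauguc
Mir22 hairpin: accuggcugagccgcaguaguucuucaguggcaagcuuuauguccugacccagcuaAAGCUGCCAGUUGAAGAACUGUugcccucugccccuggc
The other microRNAs that Myc is known to lower, and whose probe sets read above the array median used below, include miR-15a (chr14:61632027-61632110, minus strand, inside the lncRNA gene Dleu2).
miR-22-3p: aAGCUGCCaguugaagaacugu
miR-15a-5p: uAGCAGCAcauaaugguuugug

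Most microRNA probe sets were dim. Values are linear intensities, the unit of the deposited table, and the table gives no detection calls, so the median of the 12 arrays' probe sets, 131.2, was used to separate them. By the mean over 12 arrays 83 of the 366 lay above that median and 283 at or below it, and 66 lay above the array's own median on every array. The median intensity of the microRNA probe sets was 47.21, against 131.1 for all probe sets. There were 194 with a mean under 50 and 73 between 50 and 100. Just below the cut were Mir679 at 126.8, Mirlet7e at 126.6 and Mir125a at 125.9, and just above it were Mir195a at 131.4, the probe set of Lincmd1 and Mir133b at 133.9 and Mir127 at 134. Intensities of different probe sets are not RNA amounts on one scale, so levels of different probe sets given side by side below describe the array's readings and not which RNA was more abundant.

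The bright end was held by probe sets that carry another gene. Of 11 with a mean of 1000 or more, 9 also listed a protein-coding gene: 4 paired Mir692-2 and Mir692-3 with Ftl1, the ferritin light chain, at 7267 to 14218, 3 paired Mir682 with the ribosomal protein gene Rpl37a at 8141 to 8293, 1 paired Mir703 with Eef1a1, a translation elongation factor, at 2127, and 1 paired Mir207 with the chaperone gene Dnaja1 at 1254. What such a probe set reads of the microRNA and of the other gene cannot be told apart. The exceptions were Mir692-1 at 3555 and Mir505 at 1408. By annotation 298 probe sets listed 1 microRNA gene and nothing else, of which 65 were above the median, 30 listed a microRNA and another gene, of which 14 were above it, and 28 listed several microRNA genes, none of them above it. The other 10 listed a microRNA host transcript, 7 of them alone and 3 with a microRNA.

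Brighter probe sets tended to belong to hairpins of higher GC content. Among 260 probe sets of 1 microRNA gene with a RefSeq hairpin, the GC content of the hairpin and the mean log2 intensity had a Spearman rho of 0.77, given as a description, since these probe sets share the same 12 arrays. The part of probe affinity, which also varies with base composition, was not tested. The 51 above the array median had a median GC of 57.8% (range 41.67% to 69.23%), and the 209 dim ones had 45.56% (28.36% to 62.37%).

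**Figure D1:**
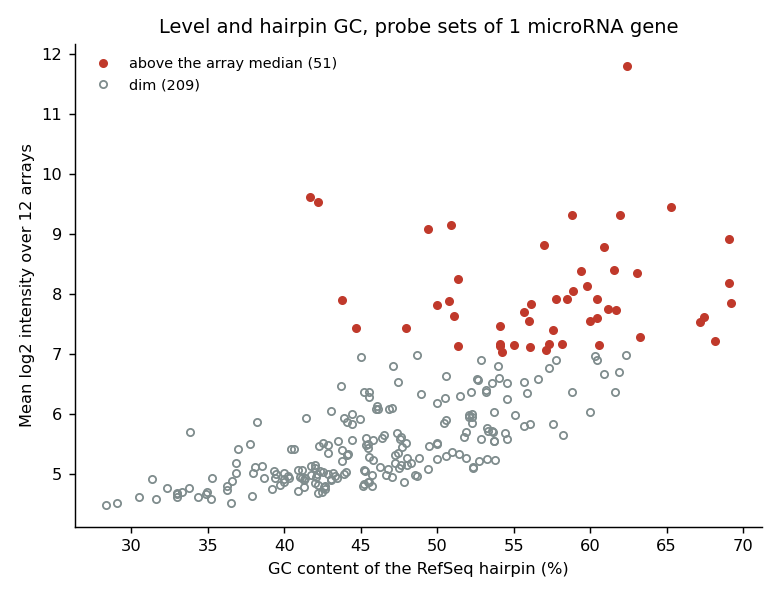
Mean log2 intensity over 12 arrays (vertical axis) against the GC content of the RefSeq hairpin in percent (horizontal axis) for 260 probe sets of 1 microRNA gene; filled points are the 51 above the array median and open points the 209 dim ones. The dim points reach down to 28.36% GC, and no point above the median lies under 41.67%.

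Few microRNA probe sets passed the test for Myc against GFP virus. In Zfx wt 4 of 366 passed limma's test at an adjusted p of 0.05 (1.09%), against a background of 4.96% of all 35556 probe sets. Mir18, Mir19a and Mir491 rose, and the probe set of Mir22hg and Mir22 fell. In Zfx ko 6 of 366 passed (1.64%), against 7.25% of all probe sets: Mir18 and the 3 probe sets of Mir682 and Rpl37a rose, and Mir22hg with Mir22 and Mir568 fell. Among those above the array median 2 of 83 passed in Zfx wt and 5 of 83 in Zfx ko (2.41% and 6.02%), against 9.48% and 13.8% of all probe sets above it. Among dim ones 2 of 283 passed in Zfx wt and 1 of 283 in Zfx ko (0.707% and 0.353%), against 0.45% and 0.731% of all dim probe sets. The shares lay below or near the background, so they say nothing particular about microRNA genes. With replicate number as a block, 15 passed in Zfx wt (11 higher, 4 lower) and 18 in Zfx ko (13 higher, 5 lower), against 12.4% and 16% of all probe sets. Arrays of the same replicate number deviated together from their group means. Leaving out a single array moved these counts: 0 of 366 passed in Zfx wt without Myc Zfx wt replicate 1, Myc Zfx wt replicate 3 or GFP Zfx wt replicate 1, and 1 passed without GFP Zfx wt replicate 3. In Zfx ko 0 passed without Myc Zfx ko replicate 3, 1 without GFP Zfx ko replicate 1, 2 without GFP Zfx wt replicate 3, and 3 without any 1 of Myc Zfx wt replicate 2, Myc Zfx ko replicate 1 or 2, or GFP Zfx ko replicate 3.

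The typical microRNA probe set changed little. Above the array median, the median log2 change with Myc was -0.0079 in Zfx wt, beside 0.022 for all probe sets above it, and -0.056 in Zfx ko, beside 0.022. Among the dim ones the median size of the change was 0.034 in Zfx wt and 0.042 in Zfx ko, beside 0.052 and 0.051 over all dim probe sets. Myc and GFP arrays did not overlap with Myc higher for 25 of 366 in Zfx wt and 26 in Zfx ko, where 12.7% and 12.9% of all probe sets showed it, and with Myc lower for 18 and 10, where 7.84% and 8.07% did.

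The 7 probe sets of the miR-17-92 cluster all had positive log2 changes with Myc in both genotypes. Mir18 changed by 0.95 (SE 0.19) in Zfx wt and 0.93 (SE 0.19) in Zfx ko. Mir18 intensities were 330.0, 259 and 397 in Myc Zfx wt, against 143, 189.6 and 175 in GFP Zfx wt. They were 345, 301 and 366 in Myc Zfx ko, against 145, 175 and 219 in GFP Zfx ko. All 6 Myc arrays lay above all 6 GFP arrays. The change was 1.93-fold in Zfx wt (adjusted p = 0.0203) and 1.9-fold in Zfx ko (adjusted p = 0.0165), and with a single array left out the adjusted p ranged from 0.016 to 0.0848 and from 0.0137 to 0.0722. miR-18a is the cluster's member with the seed AAGGUGC printed above.

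Mir19a was dim and had the next lowest p within the cluster. Its intensities were 71.5, 64.2 and 91.2 in Myc Zfx wt, against 46.8, 45.1 and 47.1 in GFP Zfx wt, and 77.2, 67.4 and 91.2 in Myc Zfx ko, against 52.9, 42.0 and 61.1 in GFP Zfx ko. The Myc arrays were higher than all GFP arrays in both genotypes. The log2 change was 0.69 in Zfx wt (SE 0.16, adjusted p = 0.042; 0.0308 to 0.157 with a single array left out) and 0.60 in Zfx ko (SE 0.16, adjusted p = 0.0568; 0.00337 with the block).

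The bright probe set that lists Mir92-1 together with Mir17hg, the host transcript of the cluster, read 223, 165 and 364 in Myc Zfx wt, against 121, 97.1 and 129 in GFP Zfx wt. It read 225, 218 and 269.6 in Myc Zfx ko, against 124, 111 and 211 in GFP Zfx ko. The groups did not overlap in either genotype, though GFP Zfx ko replicate 3 came close to the Myc arrays. Its log2 change was 1.05 in Zfx wt (SE 0.30, adjusted p = 0.0828; 0.00541 with the block) and 0.73 in Zfx ko (SE 0.30, adjusted p = 0.214; 0.0163 with the block).

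The Mir17hg probe set itself read 238, 155 and 249 in Myc Zfx wt, against 171, 119 and 155 in GFP Zfx wt, and 346, 201 and 229 in Myc Zfx ko, against 151, 119.8 and 186 in GFP Zfx ko. The groups overlapped in Zfx wt, where replicate 2 was low with both viruses, and did not overlap in Zfx ko. Its log2 change was 0.52 in Zfx wt (adjusted p = 0.39; 0.0486 with the block) and 0.75 in Zfx ko (adjusted p = 0.128; 0.00915 with the block). In the RefSeq table used here Mir17hg spans chr14:115044390-115046728 and so contains Mir92-1 and not the cluster's other 5 microRNA genes.

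The cluster's other probe sets were dim. Mir17, whose product is known for lowering the cell cycle factor E2f1, averaged 98.9 ± 26.4 in Myc Zfx wt, against 71.7 ± 9.53 in GFP Zfx wt, and 87.4 ± 6.4 in Myc Zfx ko, against 77.5 ± 9.31 in GFP Zfx ko (SD, n = 3 each). Its groups overlapped in both genotypes, and its log2 change was 0.44 in Zfx wt (adjusted p with the block 0.0355) and 0.18 in Zfx ko (0.386). Mir20a, with the same seed, averaged 58.4 ± 14.5 in Myc Zfx wt, against 42.8 ± 3.77 in GFP Zfx wt, and 53.2 ± 8.57 in Myc Zfx ko, against 40.6 ± 5.68 in GFP Zfx ko, a log2 change of 0.42 and 0.39 (adjusted p with the block 0.0187 and 0.0218). Mir19b-1 averaged 124 ± 52.7 in Myc Zfx wt, against 68.0 ± 10 in GFP Zfx wt, and 109 ± 25.6 in Myc Zfx ko, against 74.5 ± 12.1 in GFP Zfx ko, a log2 change of 0.80 and 0.54 (adjusted p with the block 0.0178 and 0.067). The 3 were not past the test without the block. The 7 probe sets are neighbours in 1 cluster and are not independent observations.

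**Figure D2:**
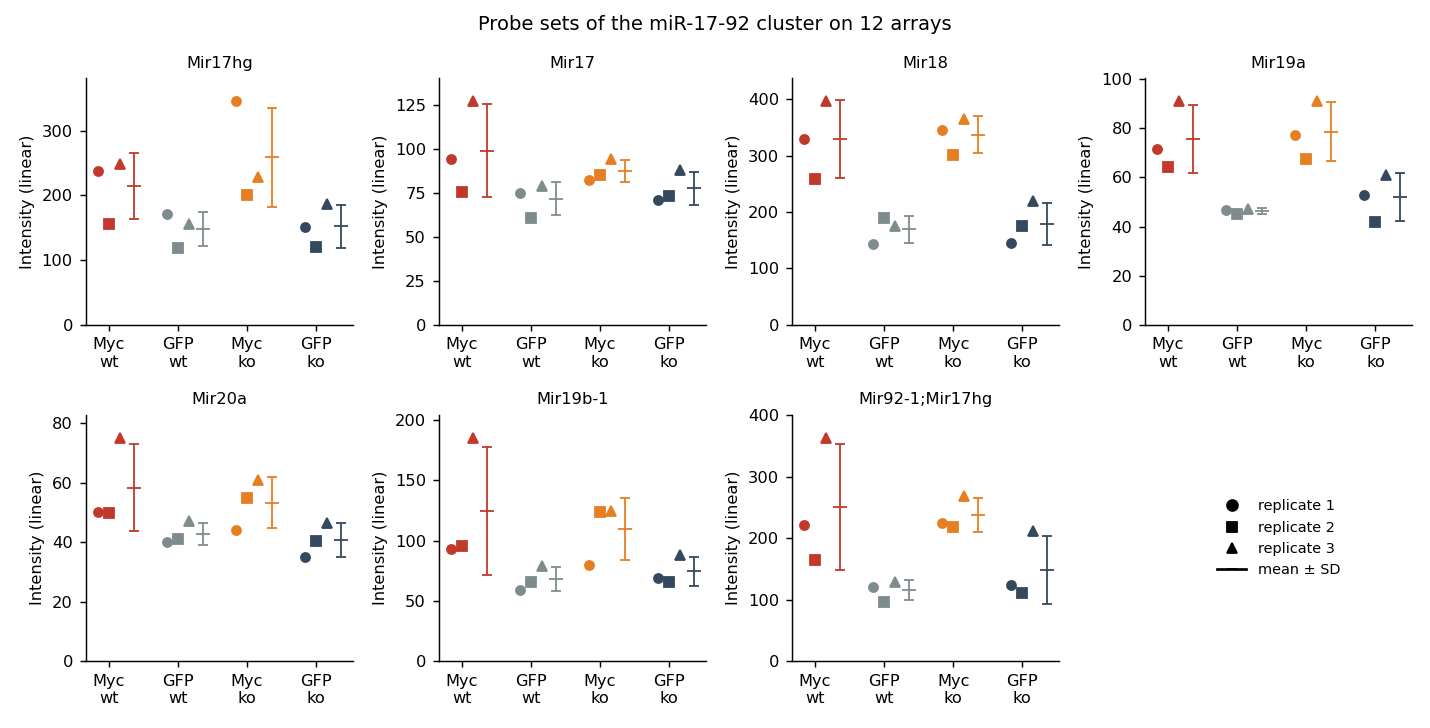
Linear intensity (vertical axes, from 0) of the 7 probe sets of the miR-17-92 cluster on each array, by group (Myc wt, GFP wt, Myc ko, GFP ko); marker shapes are replicate numbers and bars the mean ± SD of 3 arrays. Mir18 and Mir19a have every Myc array above every GFP array, while Mir17 and Mir17hg overlap in Zfx wt.

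No probe set of the paralogous clusters passed without the block. In the miR-106b-25 cluster, inside the replication gene Mcm7, Mir25 averaged 342 ± 25.2 in Myc Zfx wt and 319 ± 54 in GFP Zfx wt, and 337 ± 36 in Myc Zfx ko and 311 ± 37.8 in GFP Zfx ko (SD, n = 3 each). The log2 change of Mir25 had a 95% interval of -0.20 to 0.42 in Zfx wt and -0.19 to 0.42 in Zfx ko. Mir93 changed by 0.12 (-0.24 to 0.48) in Zfx wt and 0.11 (-0.25 to 0.47) in Zfx ko, and Mir106b, dim at 109, by -0.16 (-0.67 to 0.36) and 0.059 (-0.46 to 0.57). The groups overlapped for all 3, and none passed with or without the block. The host Mcm7 changed by 0.14 in Zfx wt and 0.20 in Zfx ko (adjusted p = 0.482 and 0.181; 0.134 and 0.0298 with the block). The 5 probe sets of the miR-106a-363 cluster were dim at 30.21 to 36.49, and their median log2 change was 0.056 in Zfx wt and 0.0029 in Zfx ko. Of these, Mir92-2, whose mature sequence is that of Mir92-1, changed by 0.19 in Zfx wt (adjusted p = 0.204; 0.0436 with the block). The difference between the clusters was not tested. Of the 15 probe sets of all 3 clusters, 2 rose with Myc in Zfx wt and 1 in Zfx ko, and 8 and 5 did with the block, where 3.38% and 4.78% of all probe sets were called higher without the block, and 7.61% and 9.37% with it.

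**Figure D3:**
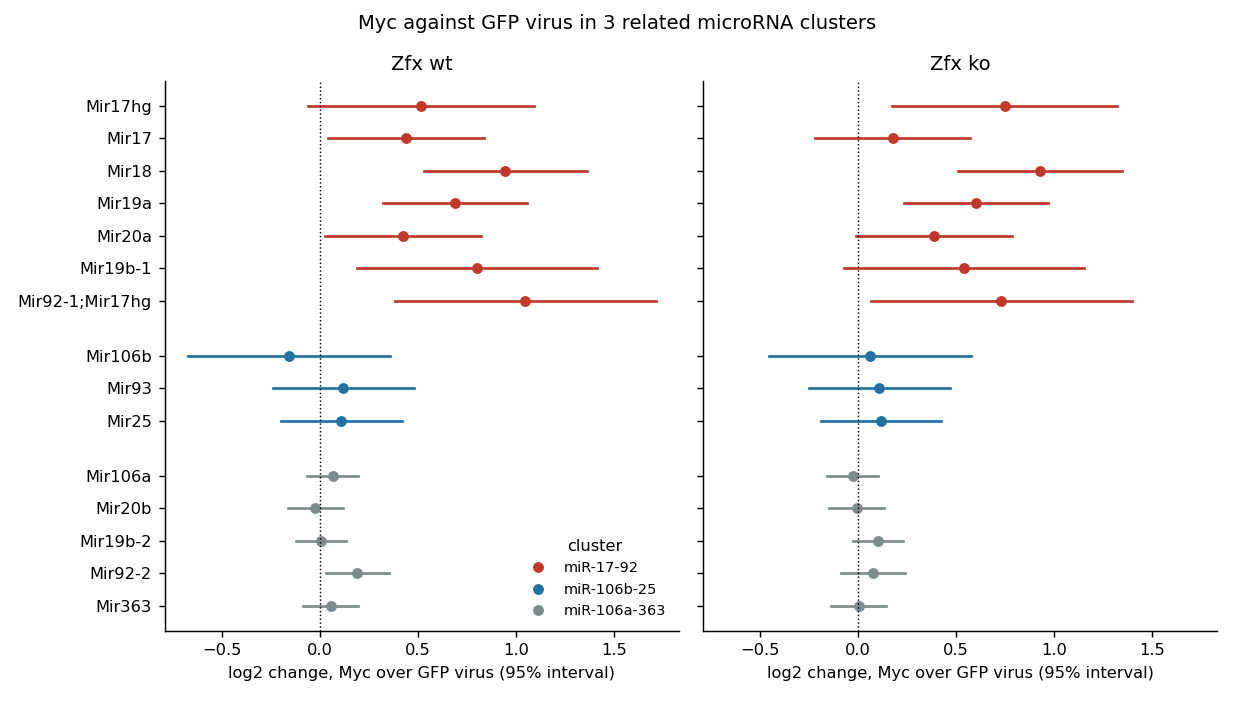
Log2 change of Myc over GFP virus (horizontal axes) with its unadjusted 95% interval for the probe sets of 3 related clusters, in Zfx wt (left) and Zfx ko (right); the dotted line marks no change. All 7 miR-17-92 points lie right of 0 in both genotypes, and those of miR-106b-25 and miR-106a-363 lie between -0.16 and 0.19.

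Among microRNAs known from other cells to be lowered by Myc, the probe set of Mir22 fell in both genotypes. The probe set of Mir22hg and Mir22, a microRNA studied in blood stem cells and leukaemia, read 142, 138 and 117 in Myc Zfx wt, against 242, 196 and 251 in GFP Zfx wt. It read 240.2, 179.6 and 196 in Myc Zfx ko, against 378, 251 and 362 in GFP Zfx ko. Every Myc array was below every GFP array of its genotype, and every Zfx ko array was above every Zfx wt array of its virus. With GFP the genotypes nearly met, as the lowest Zfx ko array and the highest Zfx wt array both round to 251. With Myc it fell by 0.79 on the log2 scale in Zfx wt (SE 0.17, 1.73-fold lower, adjusted p = 0.0297) and by 0.67 in Zfx ko (SE 0.17, 1.59-fold lower, adjusted p = 0.0445). With a single array left out the adjusted p ranged from 0.0144 to 0.126 in Zfx wt and from 0.0125 to 0.152 in Zfx ko. The share of this reading that comes from the microRNA and from its host transcript cannot be told apart.

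Mir15a, known for lowering Bcl2, showed how arrays of 1 number moved together. Its intensities were 439.8, 301 and 234 in Myc Zfx wt, against 671, 342 and 318 in GFP Zfx wt, and 520.1, 284 and 274 in Myc Zfx ko, against 654, 377 and 409.9 in GFP Zfx ko. Replicate 1 was high in all 4 groups, so the groups overlapped, while the Myc array was below the GFP array in all 6 same-numbered pairs. Its log2 change came to -0.41 in Zfx wt and -0.44 in Zfx ko; the adjusted p was 0.767 and 0.697 without the block and 0.0273 and 0.0168 with it. With a single array left out the log2 change ranged from -0.655 (without Myc Zfx wt replicate 1) to -0.0698 (without GFP Zfx wt replicate 1) in Zfx wt. In Zfx ko it ranged from -0.739 (without Myc Zfx ko replicate 1) to -0.195 (without GFP Zfx ko replicate 1). The probe set of its host Dleu2 was dim at 28.13 and changed by -0.023 and -0.078 (adjusted p = 0.951 and 0.515). Mir16-1, inside the same host, was dim at 58.18 and changed by -0.012 and -0.073.

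The rest of that list did not pass for Myc against GFP virus, with or without the block. Of its 40 probe sets 12 were above the array median and 28 were dim, at 24.12 to 126.6. In each genotype 1 of 40 fell (Mir22hg with Mir22) and 2 fell with the block (Mir15a as well), where 1.58% of all probe sets fell in Zfx wt and 2.47% in Zfx ko, and 4.82% and 6.61% did with the block. The median log2 change of the 40 was -0.022 in Zfx wt and -0.010 in Zfx ko. The let-7 genes, whose products slow growth and are opposed by Lin28, had 3 probe sets above the median. Mirlet7i changed by 0.085 in Zfx wt and -0.056 in Zfx ko, Mirlet7d by -0.013 and 0.13, and the probe set of Lncppara and Mirlet7b by -0.026 and 0.10. None of the 3 passed. The Mir23a cluster of chromosome 8 had all 3 genes above the median and changes of -0.025 (Mir23a), -0.063 (Mir27a) and -0.066 (Mir24-2) in Zfx wt and -0.21, -0.15 and -0.11 in Zfx ko. None of the 3 passed, and with a single array left out the change in Zfx ko ranged from -0.273 to -0.136 for Mir23a, from -0.269 to -0.0247 for Mir27a and from -0.191 to -0.0389 for Mir24-2, where the value nearest 0 was that without GFP Zfx ko replicate 3 for Mir27a and without Myc Zfx ko replicate 2 for Mir24-2. Mir29a, Mir29b-1 and Mir34a were dim at 30.7, 24.1 and 39.9, with changes between -0.041 and 0.064. The other miR-29 genes, Mir29b-2 and Mir29c, each share a probe set with the lncRNA gene A330023F24Rik and were as dim, at 32.3 and 32.2. Mir29c changed by -0.15 in Zfx wt (adjusted p = 0.193), where all Myc arrays read below all GFP arrays, and by -0.075 in Zfx ko (adjusted p = 0.607). Mir29b-2 changed by -0.066 and -0.072 (adjusted p = 0.747 and 0.661) and was lower with Myc in all 6 same-numbered pairs. Neither passed with the block (adjusted p = 0.139 and 0.478 for Mir29c, 0.47 and 0.398 for Mir29b-2). In Zfx wt all Myc arrays also read below all GFP arrays for Mir29b-2, the dim Mir146, Mir23b and the dim Mir24-1. Of all probe sets 7.84% did so. The dim Mir98 went the other way there, with all Myc arrays above all GFP arrays, as for 12.7% of all probe sets. In Zfx ko, of this list only Mir22hg with Mir22 read below on all Myc arrays, where 8.07% of all probe sets did. Lncppara with Mirlet7b and the dim Mir125b-1 and Mirlet7f-1 read above on all Myc arrays in Zfx ko, where 12.9% of all probe sets did. Mir23b and Mir24-1 each share a probe set with Aopep and changed by -0.15 and -0.18 in Zfx wt. With a single array left out Mir23b ranged from -0.171 to -0.123. In Zfx ko they changed by -0.054 and -0.072, and their groups overlapped.

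Other microRNA probe sets that passed were dim or shared with another gene. Mir491 (chr4:88122040-88122125, plus strand) lies inside Focad, the gene of focadhesin. It read 57.6, 56.2 and 54.7 in Myc Zfx wt, against 45.5, 43.4 and 49.3 in GFP Zfx wt, and 55.2, 55.2 and 51.7 in Myc Zfx ko, against 44.3, 49.0 and 44.7 in GFP Zfx ko. The groups did not overlap, yet the change was small, with a log2 value of 0.29 in Zfx wt (SE 0.063, adjusted p = 0.0311; 0.0307 to 0.108 with a single array left out) and 0.23 in Zfx ko (SE 0.063, adjusted p = 0.0563; 0.0463 with the block). Focad itself rose by 0.81 in Zfx wt and 0.82 in Zfx ko (adjusted p = 0.00375 and 0.00219).

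The 3 probe sets of Mir682 and Rpl37a gave nearly the same reading. The one with the lowest p in Zfx ko read 8109.6, 8261 and 8455 in Myc Zfx wt, against 7539.9, 7626 and 7619 in GFP Zfx wt, and 9022, 9096 and 8588 in Myc Zfx ko, against 7850.0, 7848 and 7862 in GFP Zfx ko. The arrays separated by virus in both genotypes with a very small spread. Their log2 changes in Zfx ko were 0.18, 0.18 and 0.16 (adjusted p = 0.0319, 0.0325 and 0.0474), a rise of 1.13-fold for the one given, and with a single array left out its adjusted p ranged from 0.0472 to 0.0918. They carry the same symbols and count as 1 observation. With 1 probe set for each set of symbols, an alternative chosen after seeing the data, 4 were called in Zfx ko.

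Mir568 (chr16:43640655-43640737, plus strand) was dim. It read 26.7, 30.7 and 27.2 in Myc Zfx ko, against 34.4, 38.0 and 34.3 in GFP Zfx ko, and 27.6, 28.4 and 26.5 in Myc Zfx wt, against 31.4, 29.6 and 30.7 in GFP Zfx wt. The Myc arrays were lower in both genotypes and the GFP Zfx ko arrays stood highest. It fell by 0.34 on the log2 scale in Zfx ko (SE 0.067, adjusted p = 0.0159) and changed by -0.15 in Zfx wt (adjusted p = 0.29). Centring each array on its median left an adjusted p of 0.052 in Zfx ko.

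Mir3068 (chr12:87437679-87437757, minus strand), inside the demethylase gene Alkbh1, had the fifth lowest p in Zfx wt. It read 106, 108 and 91.5 in Myc Zfx wt, against 60.3, 73.2 and 67.6 in GFP Zfx wt, and 81.8, 131 and 95.3 in Myc Zfx ko, against 61.5, 68.6 and 74.5 in GFP Zfx ko. All Myc arrays were above all GFP arrays. The log2 change was 0.60 (SE 0.16, adjusted p = 0.0632; 0.0182 with the block) in Zfx wt and 0.57 (SE 0.16, adjusted p = 0.062; 0.0181 with the block) in Zfx ko.

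**Figure D4:**
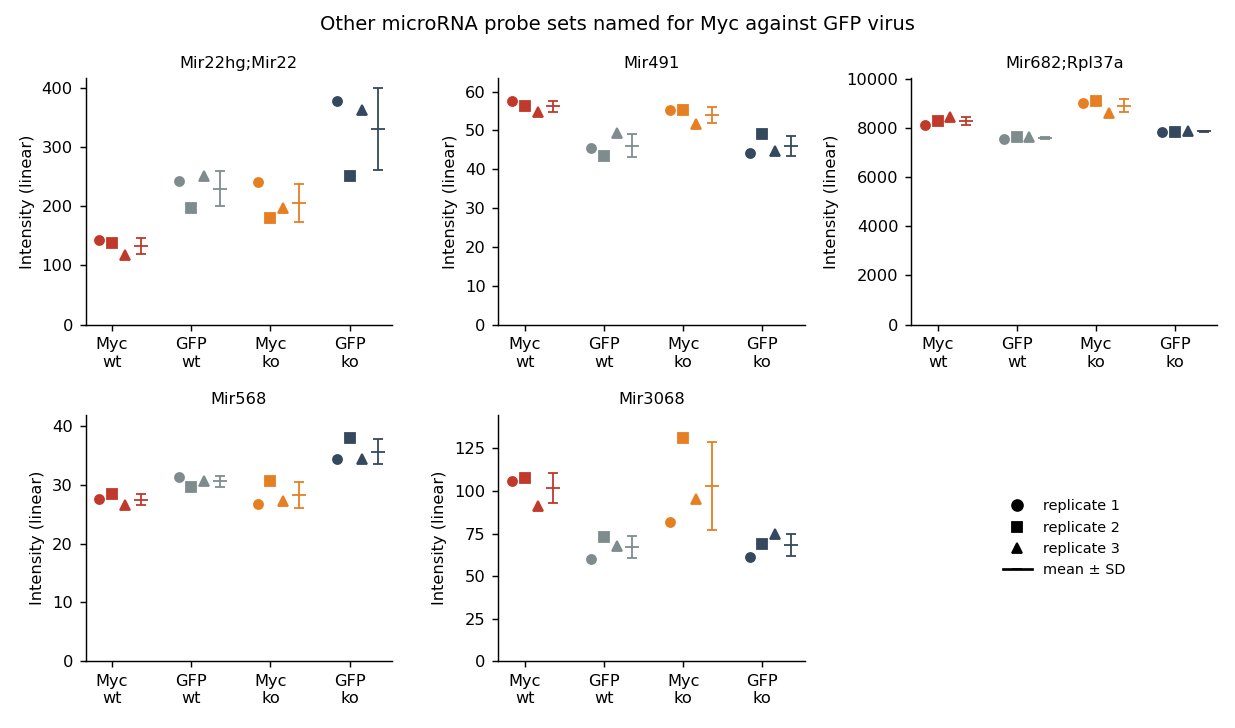
Linear intensity (vertical axes, from 0) of 5 microRNA probe sets on each array, by group (Myc wt, GFP wt, Myc ko, GFP ko); marker shapes are replicate numbers and bars the mean ± SD of 3 arrays. The panel of Mir682 and Rpl37a shows the 1 of its 3 probe sets with the lowest p in Zfx ko; Mir22hg with Mir22 is lower with Myc and higher in Zfx ko, and Mir568 is dim throughout.

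With the block, further probe sets passed, which are named here because of that and so after their values were seen. The probe set of Mir1291 and Snora34, a small nucleolar RNA, changed by 0.49 in Zfx wt and 0.59 in Zfx ko (adjusted p with the block 0.0167 and 0.00609; 0.217 and 0.0986 without). It read 1056, 667 and 921 in Myc Zfx ko, against 558, 494 and 687 in GFP Zfx ko. Replicate 2 was low with both viruses, and 1 Myc array lay below the highest GFP array. Mir6516, inside the small nucleolar RNA host gene Snhg20, and the dim Mir677, inside the ATP synthase gene Atp5b, changed by 0.51 and 0.51 in Zfx ko (adjusted p with the block 0.00578 and 0.00602; 0.261 and 0.0732 without). Lower with the block were the dim Mir340 in Zfx ko (-0.64, adjusted p = 0.0254, 0.101 without), Mir146b in Zfx ko (-0.34, 0.0295, 0.695 without), and the dim Mir695 and Mir222 in Zfx wt (-0.18 and -0.24, 0.0347 and 0.0371, 0.306 and 0.0652 without). Mir222 and its neighbour Mir221 are known for lowering Kit, the receptor for SCF. Mir221 changed by -0.21 in Zfx wt and -0.19 in Zfx ko and did not pass.

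Most probe sets of microRNAs known from blood cells were dim, as were most of all 366, and some varied widely between arrays. Of 36 probe sets on that list 9 were above the array median, beside 83 of all 366. In each genotype 1 of 36 fell with Myc (Mir22hg with Mir22, also on the list above) and none rose, where 1.58% of all probe sets fell in Zfx wt and 2.47% in Zfx ko. In each genotype 2 were lower with the block (Mir222 as well in Zfx wt, Mir146b in Zfx ko), where 4.82% and 6.61% of all probe sets were. Mir142 read 911, 352 and 907 in Myc Zfx wt, against 1342, 337 and 1202 in GFP Zfx wt, and 866, 485 and 698 in Myc Zfx ko, against 1178, 402 and 1296 in GFP Zfx ko. Replicate 2 was the lowest in every group, and the groups overlapped. Its log2 change had a 95% interval of -1.70 to 1.1 in Zfx wt and -1.75 to 1.04 in Zfx ko, so changes over 2-fold either way lie within it. Mir181b-1, known from lymphoid cells, was dim on average and read 180.2, 96.7 and 131 in Myc Zfx wt, 122, 86.4 and 62.9 in Myc Zfx ko, 252, 134 and 178 in GFP Zfx wt and 129, 83.0 and 138 in GFP Zfx ko. The groups overlapped and no difference passed with or without the block, with log2 differences of -0.59 for Zfx ko with Myc and -0.67 with GFP (adjusted p = 0.626 and 0.54). By replicate number it was lower in Zfx ko in all 6 pairs, and lower with Myc in 3 of 3 pairs in Zfx wt. In Zfx ko it was higher with Myc in 1 of 3 pairs. Mir144 and Mir451a, made in red cell precursors, were dim at 24.9 and 39.9, and Mir155, known from activated immune cells, at 66.3.

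Markers of some cell types moved with the virus too. Of 10 neutrophil genes 6 fell with Myc in Zfx wt and 5 did in Zfx ko, where 1.58% and 2.47% of all probe sets fell, and 9 and 10 were lower with the block (4.82% and 6.61%). Their summed intensities were 34550 to 47710 in Myc Zfx wt, against 68090 to 80180 in GFP Zfx wt, and 43940 to 51250 in Myc Zfx ko, against 71040 to 85290 in GFP Zfx ko. Of 10 mast cell and basophil genes 6 fell and 1 rose in Zfx wt and 3 fell in Zfx ko, where 6 were lower with the block. Their summed intensities were 7781 to 17200 in Myc Zfx wt, against 16840 to 23980 in GFP Zfx wt, and 3754 to 7115 in Myc Zfx ko, against 10830 to 16030 in GFP Zfx ko. Of 7 erythroid genes measured none passed in Zfx wt and 3 rose in Zfx ko (background 4.78% of all probe sets), where 5 were higher with the block (9.37%). Their summed intensities were 1336 to 1889 in Myc Zfx wt, against 1018 to 1323 in GFP Zfx wt, and 2691 to 7209 in Myc Zfx ko, against 1594 to 1797 in GFP Zfx ko. Of 10 myeloid progenitor genes 2 fell in Zfx wt and 4 did in Zfx ko, and 3 and 8 were lower with the block. Of 5 monocyte and macrophage genes and 5 megakaryocyte genes measured none passed with Myc. With the block 1 of each list was lower in each genotype. None of the 4 T cell genes measured was above the array median. Of 4 B cell genes 1 was, Cd79b at 772.4. No B or T cell gene passed with or without the block. The part of cell makeup in the microRNA changes was not tested.

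The gene around a microRNA gene gave a second reading. RefSeq placed 96 probe sets of 1 microRNA gene inside a gene on the same strand that had a probe set of its own, and 18 of the 96 were above the array median. The table used gives no exons, so intron and exon were not told apart. Across the 96 pairs the log2 changes with Myc of the microRNA and its host had a Spearman rho of 0.31 in Zfx wt and 0.56 in Zfx ko. These are descriptions over genes on shared arrays. In Zfx wt 6 hosts rose with Myc by a median of 0.34 on the log2 scale, and the median change of the microRNA probe sets inside them was 0.022. In Zfx ko 8 hosts rose by a median of 0.37 and their microRNA probe sets changed by a median of 0.064. Of all probe sets 3.38% rose in Zfx wt and 4.78% in Zfx ko. Some hosts hold several of the 96 microRNA probe sets, so there were fewer hosts than pairs.

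Among the pairs whose host passed, host and microRNA had like changes in some. Besides Focad with Mir491, R3hdm1 rose by 0.24 in Zfx wt and 0.21 in Zfx ko (adjusted p = 0.035 and 0.0461), and Mir128-1 inside it, above the array median, changed by 0.29 and 0.22 (adjusted p = 0.159 and 0.295). Rnf130, a ubiquitin ligase gene, fell by 0.43 in Zfx ko (adjusted p = 0.0162) and changed by -0.31 in Zfx wt (adjusted p = 0.0738; 0.0488 with the block), and the dim Mir340 inside it changed by -0.64 and -0.42. In the other pairs whose host passed, the microRNA did not pass, and its log2 change lay between -0.16 and 0.12. Xpo5, the gene of the exportin that carries hairpins out of the nucleus, rose by 0.46 in Zfx wt and 0.47 in Zfx ko, while Mir693 inside it changed by -0.035 and 0.047. Wdr82 rose by 0.32 and 0.36, while Mirlet7g inside it changed by -0.014 and 0.075. Nup93, a nuclear pore gene, rose by 0.33 and 0.38, while Mir138-2 inside it changed by 0.058 and 0.0055. These 3 microRNA probe sets were dim, as was Mir186 inside the splicing gene Zranb2. Zranb2 rose by 0.34 in both genotypes (adjusted p = 0.0489 in Zfx wt and 0.0366 in Zfx ko), and Mir186 changed by -0.024 and 0.12. The hosts that follow passed in Zfx ko and not in Zfx wt. Tango2 rose by 0.41 (adjusted p = 0.0248) and Sf3a3, another splicing gene, by 0.31 (adjusted p = 0.035), while Mir185 and Mir697 inside them, both above the array median, changed by -0.16 and 0.053. Tmem164 fell by 0.37 on the log2 scale (adjusted p = 0.00265), and the dim Mir652 inside it changed by -0.029. In Zfx wt these 3 hosts changed by 0.24, 0.25 and -0.17 (adjusted p = 0.199, 0.104 and 0.0644; 0.0422 with the block for Tmem164), and the difference between genotypes passed for no probe set.

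**Figure D5:**
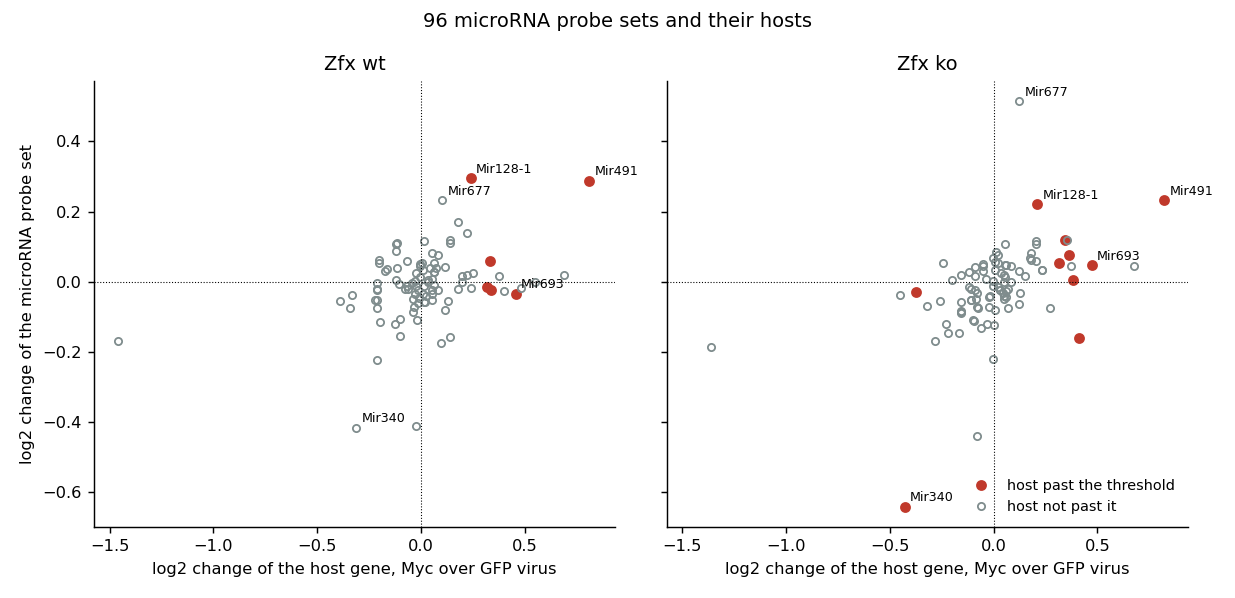
Log2 change of 96 microRNA probe sets (vertical axis) against that of the gene that contains them (horizontal axis), Myc over GFP virus, in Zfx wt (left) and Zfx ko (right); filled points are hosts that passed the adjusted p of 0.05. Mir491 and Mir128-1 lie above 0 with their hosts and Mir340 below 0, while Mir693 lies near 0 under a host that rose by 0.46 and 0.47.

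No microRNA probe set passed for Zfx ko against Zfx wt. With the GFP virus 0 of 366 passed, against 1.83% of all probe sets, and 7 had an unadjusted p under 0.05 in limma, beside 10.7% of all probe sets. With the Myc virus 0 of 366 passed, against 2.38% of all probe sets, and 20 had an unadjusted p under 0.05, beside 11.3% of all probe sets. With the block 2 passed under each virus, against 5.91% and 7.03% of all probe sets. Above the array median the median log2 difference was 0.048 with GFP and 0.012 with Myc, beside -5.94e-05 and 0.00055 for all probe sets above it. Both comparisons share their arrays with the Myc comparisons above.

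Markers of some cell types also stood apart by genotype. Of 5 megakaryocyte genes measured none passed, but 4 were higher in Zfx ko with the block under each virus, where 2.99% of all probe sets were with Myc and 2.45% with GFP. Their median log2 difference was 1.40 with Myc and 1.47 with GFP. Their summed intensities were 5367 to 16220 in Myc Zfx ko, against 1763 to 7135 in Myc Zfx wt, and 20530 to 26770 in GFP Zfx ko, against 7139 to 13860 in GFP Zfx wt. Of 7 erythroid genes 3 rose in Zfx ko with Myc and none passed with GFP, and 5 and 1 were higher with the block. Of 10 mast cell and basophil genes 2 fell with Myc and none passed with GFP, and 3 were lower with the block under each virus, beside 4.04% of all probe sets with Myc and 3.47% with GFP. Without the block 0.734% of all probe sets rose with Myc and 1.65% fell, and 0.523% rose with GFP and 1.31% fell. Of 10 neutrophil genes 1, Mmp8, rose in Zfx ko under each virus, by 1.09 with Myc and 1.40 with GFP on the log2 scale. Of 10 myeloid progenitor genes 1 fell with Myc and none passed with GFP, and 3 and 1 were lower with the block. No monocyte and macrophage gene and no B or T cell gene passed without the block. The part of these genes' cell types in the differences that follow was not tested.

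For Mir22hg with Mir22 every Zfx ko array read above every Zfx wt array of its virus, though with GFP the ranges nearly met, as given above. The log2 difference was 0.63 with Myc (SE 0.17, 1.54-fold, adjusted p = 0.112; 0.0228 with the block) and 0.51 with GFP (SE 0.17, 1.42-fold, adjusted p = 0.251; 0.057 with the block). All 3 same-numbered pairs were higher in Zfx ko under each virus. Among the 4 microRNA probe sets called with the block, it alone lay outside the other genotype's range under both viruses. The 3 probe sets of Mir682 and Rpl37a, not called with the block, also read higher on all Zfx ko arrays under both viruses. Zfx ko arrays all lay above for 22 of 366 with GFP and 35 with Myc, where 6.24% and 7.19% of all probe sets did. They all lay below for 16 and 11, where 7.99% and 8.47% of all probe sets did.

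Mir540 (chr12:109586080-109586146, plus strand), a gene of the imprinted microRNA region of chromosome 12, was above the median. It read 210.0, 201 and 177 in Myc Zfx ko, against 228, 248 and 223 in Myc Zfx wt, and 217, 210.1 and 202 in GFP Zfx ko, against 232, 245 and 206 in GFP Zfx wt. The groups did not overlap with Myc and did with GFP. The log2 difference was -0.25 with Myc (adjusted p = 0.212; 0.0331 with the block) and -0.12 with GFP. Mir196b (chr6:52230081-52230165, minus strand), which lies among the Hoxa genes, was dim and read 67.3, 58.2 and 62.2 in GFP Zfx ko, against 88.5, 65.2 and 83.6 in GFP Zfx wt, and 69.7, 59.2 and 65.2 in Myc Zfx ko, against 71.1, 71.9 and 72.5 in Myc Zfx wt. The Zfx ko arrays were lower with Myc, and with GFP the groups overlapped because GFP Zfx wt replicate 2 was low. The log2 difference was -0.33 with GFP (adjusted p = 0.249; 0.0485 with the block) and -0.15 with Myc. Mir296 differed by 0.20 with GFP (adjusted p = 0.517; 0.0369 with the block).

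The lowest p with GFP belonged to Mir98, a let-7 relative inside Huwe1, which read 48.9, 49.5 and 48.4 in GFP Zfx ko, against 43.3, 44.6 and 42.3 in GFP Zfx wt. The groups did not overlap, and the log2 difference was 0.17 (SE 0.05, adjusted p = 0.154). Mir568 differed by 0.22 and Lncppara with Mirlet7b by -0.15 with GFP (adjusted p = 0.189 and 0.325). With Myc the 3 probe sets of Mir682 and Rpl37a were among the 5 lowest p, at 0.11, 0.10 and 0.11 (adjusted p = 0.36, 0.363 and 0.333).

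The hosts that fell in Zfx ko, 3 with GFP and 4 with Myc, held microRNA genes that did not pass. Of all probe sets 1.31% fell with GFP and 1.65% with Myc. Pank1 and Pank3, pantothenate kinase genes of coenzyme A synthesis, were lower by 1.11 and 0.69 on the log2 scale with Myc and by 0.90 and 0.60 with GFP, and all 4 differences passed. Mir107 and Mir103-1 inside them were dim and differed by -0.11 and -0.041 with Myc and by -0.050 and -0.064 with GFP. Ctdspl, a phosphatase gene, differed by -0.98 with Myc and -0.95 with GFP (adjusted p = 0.00563 and 0.00739). Mir26a-1 inside it averaged 58.7 ± 2.2 in Myc Zfx ko, against 71.1 ± 7.4 in Myc Zfx wt, and 56.9 ± 5.46 in GFP Zfx ko, against 83.3 ± 30.1 in GFP Zfx wt (SD, n = 3 each). The groups did not overlap with Myc and did with GFP, and the log2 difference was -0.27 and -0.49 (adjusted p = 0.824 and 0.401). Dalrd3 fell by 0.51 on the log2 scale with Myc (adjusted p = 0.0486) and differed by -0.40 with GFP (adjusted p = 0.145; 0.0114 with the block). Inside it Mir191, which was dim, differed by -0.058 with Myc and -0.056 with GFP, and Mir425, which was above the median, by -0.14 and -0.17.

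The effect of Myc was not found to differ between genotypes for any microRNA probe set. For the interaction 0 of 366 passed with or without the block, against 0% of all probe sets, and 1 had an unadjusted p under 0.05 in limma without the block, beside 1.56% of all probe sets. That 1 was Mir196a-1, dim at 38.6, with a difference between log2 changes of -0.15 (unadjusted p = 0.0465). For Mir18 the difference between the changes in Zfx ko and Zfx wt was -0.018 (95% interval -0.61 to 0.57) and for Mir22hg with Mir22 it was 0.12 (-0.42 to 0.66). The others among the 5 lowest p were Mir707 with Akt1s1 at -0.28, Mir568 at -0.18, Mir200a at -0.21 and Mir190b at 0.16.

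Some genes of the microRNA pathway itself passed the test for Myc against GFP virus, and some passed for Zfx ko against Zfx wt. Of 31 measured genes that make, load or degrade microRNAs, 3 rose and 1 fell with Myc in Zfx wt. In Zfx ko 7 rose and 1 fell. Of all probe sets 3.38% and 4.78% rose, and 1.58% and 2.47% fell. Of the 31 genes 29 were above the array median, where 9.48% and 13.8% of all probe sets were called in either direction. With the block 7 rose and 2 fell in Zfx wt, and 12 rose and 3 fell in Zfx ko. With it 7.61% and 9.37% of all probe sets rose, and 4.82% and 6.61% fell. Gemin4, a protein of the SMN complex that is also found with Argonaute, averaged 643.8 ± 22 in Myc Zfx wt, against 450.5 ± 24.4 in GFP Zfx wt, and 596.1 ± 31.4 in Myc Zfx ko, against 364.8 ± 8.17 in GFP Zfx ko (SD, n = 3 each; log2 change 0.52 and 0.71, adjusted p = 0.00358 and 0.000983). Parn, a ribonuclease that trims RNA tails, rose by 0.39 and 0.65 (adjusted p = 0.0298 and 0.00338), and Xpo5 rose as given above. Tut7, which adds uridines to let-7 hairpins, fell by 0.52 and 0.44 (adjusted p = 0.0187 and 0.0287). In Zfx ko the related Tut4, the RNA-binding genes Khsrp and Lin28b and the editing enzyme gene Adarb1 rose as well. Lin28b, which blocks let-7 processing, averaged 113.9 ± 55.5 in Myc Zfx ko, against 43.91 ± 1.15 in GFP Zfx ko, and 42 ± 2.34 in Myc Zfx wt, against 42.15 ± 0.567 in GFP Zfx wt. Its rise in Zfx ko carried a wide spread between the Myc arrays (log2 change 1.24, adjusted p = 0.039). Drosha changed by 0.36 and 0.39 and passed with the block (adjusted p = 0.00517 and 0.00253; 0.11 and 0.0612 without).

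Between genotypes 5 of the 31 fell and 1 rose in Zfx ko with GFP, and 4 fell and 1 rose with Myc. Of all probe sets 1.31% and 1.65% fell, and 0.523% and 0.734% rose. These shares include dim probe sets, while 29 of the 31 genes were above the array median, for which no share is given here. With the block 6 were lower under each virus, and 1 was higher with GFP and 4 with Myc. With it 3.47% and 4.04% of all probe sets fell, and 2.45% and 2.99% rose. Dicer1, which cuts the hairpin, averaged 1802 ± 146 in Myc Zfx ko, against 2450.0 ± 20.9 in Myc Zfx wt, and 1426 ± 175 in GFP Zfx ko, against 2229 ± 107 in GFP Zfx wt. It fell by 0.45 on the log2 scale with Myc (adjusted p = 0.0377) and by 0.65 with GFP (adjusted p = 0.00705). Ago1 fell by 0.32 with Myc and by 0.33 with GFP (adjusted p = 0.0107 and 0.0102), and Tnrc6c, an Argonaute partner, by 0.66 and 0.51 (adjusted p = 0.00612 and 0.0236). Tut4 rose by 0.71 and 0.48 (adjusted p = 0.00119 and 0.0104). Between genotypes 0 of 366 microRNA probe sets were called without the block, and 2 with it under each virus. The RNA form that those probe sets read is not given. Any link between the pathway genes and the microRNA readings was not tested.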

How the data were processed

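RNA of cultured mouse progenitors was measured on 12 arrays, 3 in each of 4 groups, which were taken from the sample labels. The deposited table holds linear intensities, summarised with RMA per the submitters' processing notes; the sources used here name no software or version for it. The log2 of each deposited value was taken with no pseudocount and no filter. limma 3.58.1 in R 4.3.3 fitted 4 group means over 12 arrays (8 residual degrees of freedom) to all 35556 probe sets, with Benjamini-Hochberg adjustment over all of them and a threshold of 0.05. Tables were handled with Python 3.11.15 and pandas 2.3.3, and the fit was tested on simulated data.

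Nothing in the labels says that replicates are separate animals or cultures, so p-values measure the spread between arrays, and the number of arrays limits the precision. Same-numbered arrays deviated together (correlations 0.22 to 0.809 over 18 pairs, and 12 of 12 arrays lay closest to one of their own number), so the numbers pair the arrays, and values with replicate number as a block are given where they change a call of a member or of a list named. No 2 arrays were identical. Symbols came from the platform's probe gene table, in which 21789 probe sets have 1 symbol, 1621 several and 12146 none; positions and sequences came from RefSeq tables on GRCm38.p6. The members and the lists were chosen with earlier results of these data known. Named in the text are, for each comparison, the members past the threshold, or the 5 with the lowest p where fewer than 5 passed, the brightest members, members of the lists, and hosts past the threshold without the block. Alternatives were the block, array weights, centring, quantile normalization, another variance prior, other filters and definitions, only the groups compared, and leaving out each array.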

Additional observations from a re-analysis of the deposited data

How the results depend on the processing

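The number of microRNA probe sets called moved most with the replicate block, which pairs the arrays: 15 were called for Myc against GFP in Zfx wt, 18 in Zfx ko, and 2 for Zfx ko against Zfx wt under each virus. It changed no call of the interaction. With only the groups compared in the fit, 1 was called in Zfx wt and 0 were in Zfx ko. A fit of only those probe sets that have a gene symbol called 10 in Zfx ko. Array weights gave 1 for Zfx ko against Zfx wt under each virus. With a single array left out the counts ranged from 0 to 5 in Zfx wt and in Zfx ko, and from 0 to 1 for Zfx ko against Zfx wt with either virus. The cause was not tested. The median log2 change above the array median ranged, with a single array left out, from -0.0701 to 0.0448 for Myc in Zfx wt, from -0.102 to 0.0143 for Myc in Zfx ko, from 0.00322 to 0.0921 for Zfx ko with GFP, from -0.0508 to 0.0893 for Zfx ko with Myc and from -0.0654 to 0.041 for the interaction, and centring on array medians gave 0.0353 for Zfx ko with GFP. Changes that did not pass turned sign under some alternatives. Centring gave Mirlet7d 0.00206 in Zfx wt. Array weights in Zfx ko gave Mir195a 0.023, Mirlet7d -0.0264, Mir30e -0.138 and Mir150 0.0686. With a single array left out, the log2 change with Myc in Zfx wt ranged from -0.224 to 0.126 for Mir150, from -0.104 to 0.0393 for Mir195a, from -0.13 to 0.0765 for Mir23a, from -0.232 to 0.0407 for Mir24-2, from -0.173 to 0.0024 for Mir27a, from -0.0326 to 0.212 for Mir25, from -0.0307 to 0.236 for Mir93, from -0.0261 to 0.251 for Mir30e, from -0.0701 to 0.0377 for Mirlet7d and from -0.0756 to 0.00484 for Lncppara with Mirlet7b. In Zfx ko it ranged from -0.155 to 0.102 for Mir150, from -0.162 to 0.0301 for Mir195a, from -0.153 to 0.112 for Mir23b with Aopep, from -0.195 to 0.178 for Mir30e, from -0.0218 to 0.249 for Mirlet7d and from -0.113 to 0.0115 for Mirlet7i. Low signal limits the 283 dim probe sets, for which the table gives no detection call.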

Other observations

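MicroRNA genes often lie in clusters, and the array covered 16 with at least 3 microRNA genes no more than 10 kb apart. The miR-17-92 genes had a median log2 change with Myc of 0.75 in Zfx wt and 0.57 in Zfx ko. The long cluster of the imprinted region of chromosome 12, from Mir379 to Mir410, had 31 probe sets, of which 4 were above the array median and the brightest averaged 635.7. Its changes with Myc lay between -0.10 and 0.12 in Zfx wt and between -0.11 and 0.086 in Zfx ko, with medians of 0.024 and 0.017. The neighbouring cluster from Mir337 to Mir136 had 8 probe sets, 3 of them above the median, with medians of 0.022 and -0.021. The Mir669b to Mir297b cluster of chromosome 2 packs 30 genes, read by 6 probe sets that were all dim, at 24.37 to 38.29. The Mir302b to Mir367 cluster, known from embryonic stem cells, was dim at 26.89 to 31.09. These are descriptions with no test.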
